A study of Homo sapiens with 6 samples.

Results

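The heat shock chaperones of the cytosol and the mitochondrion were followed in U251 cells, an established human glioma line, after knockdown of TEAD3. The group comprised 36 genes chosen by name: 2 heat shock factors, 4 cytosolic HSP70 genes, 3 HSP110 genes, 4 mitochondrial chaperones, 2 cytosolic HSP90 genes, 5 J-domain (HSP40) genes, 3 small heat shock proteins, 2 BAG nucleotide exchange factors, 3 HSP90 co-chaperones and the 8 subunits of the chaperonin CCT. They are 36 of the 60612 genes in the count table. All 36 were among the 17723 genes with enough counts to be tested. The lowest count of any of them in any library was 154.

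The study sequenced polyadenylated RNA from 3 control libraries, whose genotype label reads Normal Control, and 3 TEAD3 knockdown libraries. All came from the same line, and the knockdown was transient. A plasmid vector and an siRNA both appear in the protocol, and the treatment of the control cells is not stated there. Nothing in the labels says that replicates were separate cultures. The p-values therefore measure only how these libraries vary, which may be technical variation.

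Chaperones bind unfolded or partly folded proteins and help them reach or keep their native form. HSP70 works in cycles of ATP hydrolysis that J-domain proteins start and that BAG and HSP110 proteins reset by releasing ADP. HSP90 then takes over selected clients with the help of co-chaperones, while CCT encloses actin, tubulin and other proteins in a double-ring chamber. Many of these genes are switched on by heat shock factor 1 (HSF1), which binds inverted repeats of the unit GAA, the heat shock element. Tumour cells, glioma cells among them, often hold high levels of HSP70, HSP90 and small heat shock proteins.

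TEAD3, the targeted gene (6:35473597-35497076, GRCh38), had 14.9, 20.3 and 21.0 CPM (counts scaled by library size) in the controls. It had 4.70, 8.35 and 6.08 CPM in the knockdown libraries, so the groups did not overlap. The level fell to 0.34 of that in the controls (95% interval 0.244 to 0.475, log2 fold change -1.55, SE 0.218, edgeR adjusted p = 0.0114). Leaving out control replicate 3, knockdown replicate 1 or knockdown replicate 3 in turn took that adjusted p to between 0.0532 and 0.0938. Total counts per library lay between 58344026 and 64808615. The summed level of 10 glial and glioma markers was 5321 to 5886 CPM in the controls and 4392 to 4951 CPM in the knockdown libraries, without overlap, and most of it came from VIM. Of these 10 markers, VIM (log2 fold change -0.29, edgeR adjusted p = 0.2), SOX2 (-0.27, edgeR adjusted p = 0.247) and GFAP (-1.34, edgeR adjusted p = 0.143) were lower in every knockdown library than in any control, and none was called. Over all tested genes 10.6% were lower in this way. VIM lay between 3433 and 4842 CPM and SOX2 between 114 and 160 CPM over all libraries. The astrocyte markers GFAP (0.375 to 1.80 CPM) and AQP4 (at most 0.176 CPM) were near 0, and OLIG2 had no count in any library. The part of these markers in the chaperone values was not tested. Among 10 markers of other cells, CD3E and MS4A1 had no count and PTPRC reached at most 0.122 CPM. COL1A1 (log2 fold change 0.50, edgeR adjusted p = 0.209), MBP (0.76, edgeR adjusted p = 0.549) and ALB (1.33, edgeR adjusted p = 0.349) were higher in every knockdown library than in any control. None was called, and 11% of all tested genes were higher in this way. MBP reached at most 0.536 CPM and ALB 0.658 CPM. The summed level of these 10 markers was 133 to 167 CPM in the controls and 140 to 158 CPM in the knockdown libraries, nearly all of it from CD68, a lysosomal protein gene that is not specific to one cell type.

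Heat shock elements near the start sites of these genes are shown first, because they are the sequence that many of the genes share. Promoter windows of 300 bases (250 before and 50 after the start) from RefSeq (GRCh38.p14) were matched for 33 of the 36 genes. HSF1, CRYAB and CCT6A were not matched. A run of 3 alternating units (GAANNTTCNNGAA or TTCNNGAANNTTC, both strands) was present in the windows of 7 of the 33 genes (21.2%), against 0.608% of all genes with a window. These were HSPA8, HSPD1, HSP90AA1, HSP90AB1, DNAJA1, DNAJB6 and CHORDC1. A pair of units (GAANNTTC or TTCNNGAA, which every run of 3 also contains) was present in 19 of the 33 genes (57.6%), against 16.2% of all genes. The stretches below are written 5′ to 3′ on the strand of the gene. Capitals mark only the GAA and TTC units of the matched runs or pair. Other GAA or TTC letters in a stretch were left in lower case. Those that overlap an annotated exon are limited to 30 bases.
HSPA1A (chr6:31815421-31815460, + strand): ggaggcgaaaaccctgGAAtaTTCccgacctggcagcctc
HSPA1B (chr6:31827617-31827656, + strand): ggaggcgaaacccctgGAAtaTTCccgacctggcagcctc
HSPA8 (chr11:123062171-123062199, - strand): cgggccccTTCtgGAAggTTCtaagatag
HSPD1 (chr2:197500062-197500090, - strand): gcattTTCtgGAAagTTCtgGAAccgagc
HSP90AA1 (chr14:102087112-102087140, - strand): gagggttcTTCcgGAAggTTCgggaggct
HSP90AB1 (chr6:44247815-44247859, + strand): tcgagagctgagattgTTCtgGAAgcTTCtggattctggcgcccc
DNAJB1 (chr19:14518421-14518460, - strand): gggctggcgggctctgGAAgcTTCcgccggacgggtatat
DNAJB6 (chr7:157336857-157336901, + strand): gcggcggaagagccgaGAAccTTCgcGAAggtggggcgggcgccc
HSPB1 (chr7:76302475-76302514, + strand): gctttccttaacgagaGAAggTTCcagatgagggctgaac
CHORDC1 (chr11:90223084-90223112, - strand): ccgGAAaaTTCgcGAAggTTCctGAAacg

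The stretches of HSPA1A and HSPA1B, a duplicated gene pair, were identical at 39 of 40 bases. The remaining one is A11C, counted from 1 at the first base shown, with the HSPA1A base named first. The core of the TEAD binding motif (GGAATG or its reverse complement CATTCC) was found in the windows of 3 of the 33 genes (9.09%), HSPA4L, AHSA1 and STIP1, against 16.7% of all genes. A match is a description of the letters and does not show binding.

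None of the 36 chaperone genes was called between knockdown and control at an edgeR adjusted p under 0.05, where 0.655% of all tested genes were called. The smallest adjusted p among them was 0.165. DESeq2 and limma-voom also called none of the 36, against 4.92% and 0.677% of all genes, and the smallest DESeq2 adjusted p among them was 0.0535. At an unadjusted edgeR p under 0.05, 2 of the 36 (5.56%) passed, both lower in the knockdown, against 15.6% of all genes (8.15% higher and 7.43% lower). The groups did not overlap for 8 of the 36 (22.2%), a share close to the 21.6% of all genes. Of these 8, HSPE1 was higher in every knockdown library than in any control, which is 2.78% of the 36 against 11% of all genes. HSPA1A, HSPA1B, HSPA2, DNAJA2, DNAJB6, CRYAB and AHSA1 were lower, which is 19.4% of the 36 against 10.6% of all genes.

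In the main fit the estimates were narrow as well as close to 0. Fold changes of the 36 genes ran from 0.777 to 1.19, and 26 of them lay within 10% of no change. The 95% interval stayed within 1.5-fold of no change for 35 of 36 genes (97.2%), all except HSPA2. The same held for 49.2% of all tested genes, and for 72.5% of the 11990 genes with an average level at least that of the lowest chaperone. For 19 of the 36 the interval stayed within 1.25-fold. The median log2 fold change was -0.05 with 21 genes below 0 and 15 above, beside -0.00117 over all tested genes, of which 50.2% were below 0. The median size of the change, without regard to sign, was 0.0869 on the log2 scale against 0.197 over all tested genes. This last comparison was not limited to genes at the level of the chaperones. In simulated counts of this depth and spread, the test recovered 42% of genes changed 1.5-fold and 6% of genes changed 1.25-fold. Those genes were drawn at random from the well-covered genes of the whole table. The median SE was 0.0994 for the 36 genes against 0.162 over all tested genes, so these shares need not hold for the chaperones. An estimated fold of 0.801 (HSPA1A) was not called, so small real changes can be missed.

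**Figure D1:**
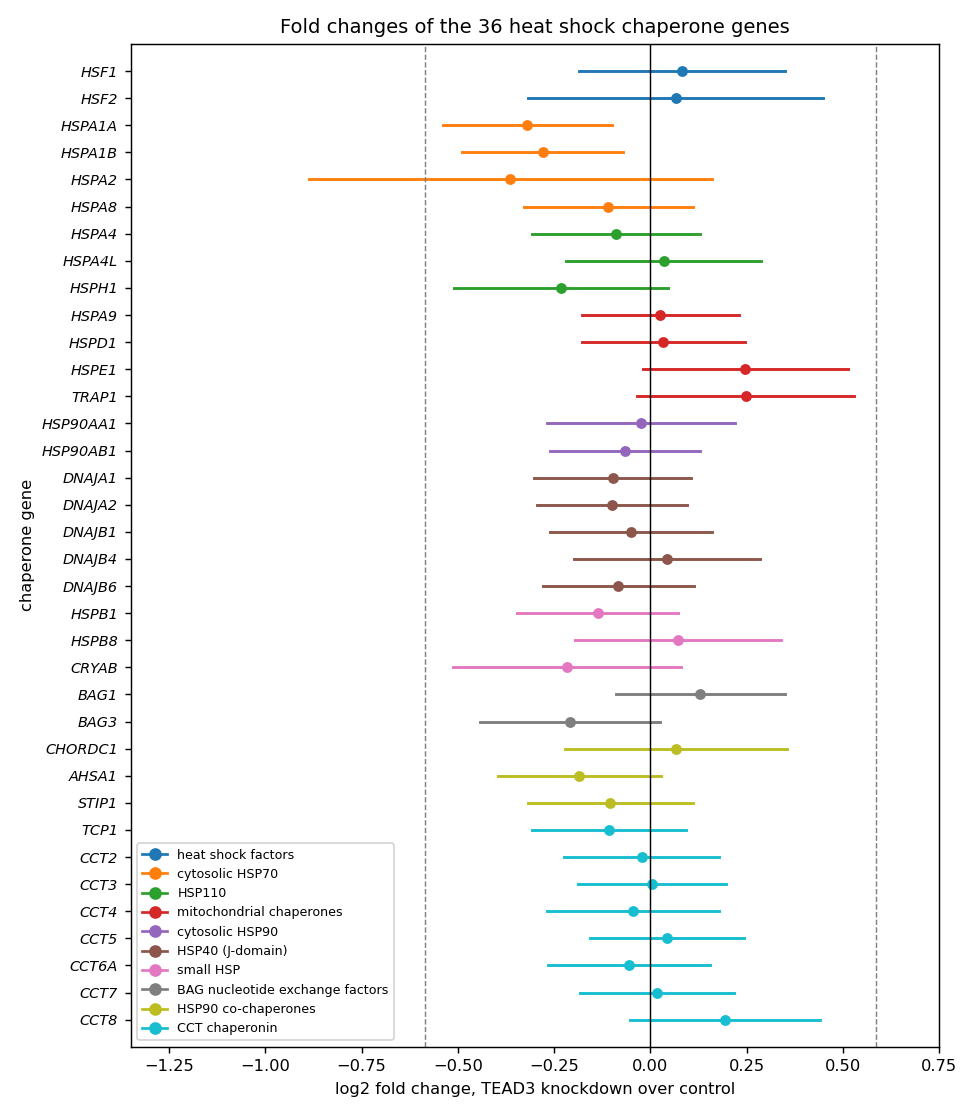
Log2 fold change (TEAD3 knockdown over control, x axis) of each of the 36 chaperone genes (y axis), coloured by family; bars are 95% intervals of the edgeR fit and dashed lines mark a 1.5-fold change. Only the interval of HSPA2 crosses a dashed line, and only those of HSPA1A and HSPA1B do not include 0.

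The 36 genes together took between 1.03% and 1.16% of all counts. Their summed level was 11293, 10609 and 10979 CPM in the controls and 10455, 10699 and 10309 CPM in the knockdown libraries (10960 ± 342 and 10488 ± 197, SD, n = 3 each). Control replicate 2 lay below knockdown replicate 2, so the groups overlapped, and the ratio of the means was 0.957. Per kilobase of transcript, the highest levels in the controls were those of HSPB1 at 987 CPM per kb, HSPA8 at 860, HSP90AB1 at 506, DNAJA1 at 300 and HSP90AA1 at 256 CPM per kb. The lowest was HSPA2 at 0.642 CPM per kb.

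The heat shock factors come first in the pathway. HSF1, the main activator of chaperone genes under stress (8:144291591-144314722), had 66.0, 82.1 and 70.4 CPM in the controls and 66.9, 84.3 and 79.9 CPM in the knockdown libraries. The ranges overlapped almost fully, with a fold change of 1.06 (95% interval 0.879 to 1.27, edgeR adjusted p = 0.814). HSF2, which can form mixed trimers with HSF1 (6:122399546-122433119), had 12.7, 8.64 and 11.2 CPM in the controls and 12.2, 11.9 and 9.89 CPM in the knockdown libraries. Its fold change was 1.05 (95% interval 0.802 to 1.36, edgeR adjusted p = 0.913).

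Among the cytosolic HSP70 genes, the fold change of all 4 was below 1, with a median log2 fold change of -0.30. HSPA1A, a heat-inducible HSP70 (6:31815464-31817946), had 115, 126 and 124 CPM in the controls and 89.2, 105 and 98.2 CPM in the knockdown libraries. Every knockdown library was below every control (122 ± 5.68 and 97.6 ± 8.11 CPM, SD, n = 3 each). The log2 fold change was -0.32 (SE 0.0995, fold 0.801, 95% interval 0.688 to 0.932), with an edgeR p of 0.00819 before and 0.165 after adjustment. Its copy HSPA1B (6:31827735-31830255) had 207, 242 and 221 CPM in the controls and 183, 186 and 183 CPM in the knockdown libraries. These groups did not overlap either, and the 3 knockdown libraries lay within 4 CPM of each other (223 ± 17.7 and 184 ± 1.97 CPM, SD, n = 3 each). The log2 fold change was -0.28 (SE 0.0947, fold 0.824, 95% interval 0.713 to 0.951), with an edgeR p of 0.0129 before and 0.196 after adjustment.

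HSPA1A and HSPA1B are not independent observations. Of the 150-base windows of HSPA1A transcripts, 67.1% also occur in HSPA1B, and 70.0% of those of HSPA1B occur in another gene, so the split of reads between them is uncertain. With their counts summed, an alternative added after the data were seen, the log2 fold change was -0.29 (SE 0.0934, fold 0.816, 95% interval on the log2 scale -0.50 to -0.09, edgeR adjusted p = 0.171). The ratio of HSPA1A to HSPA1B per length was 0.567, 0.530 and 0.569 in the controls and 0.495, 0.575 and 0.546 in the knockdown libraries. Both genes passed the threshold in 1 setting, a per-library correction for transcript length and GC content, with log2 fold changes of -0.37 (edgeR adjusted p = 0.0414) and -0.32 (edgeR adjusted p = 0.0245). In that setting 3.28% of all genes were called.

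The constitutive members of the family gave a fuller view of the HSP70 pool. HSPA8, the abundant constitutive HSP70 known as HSC70, had 2272, 1915 and 2166 CPM in the controls and 1854, 2093 and 1943 CPM in the knockdown libraries. The groups overlapped, with a fold change of 0.927 (95% interval 0.796 to 1.08, edgeR adjusted p = 0.664). HSPA2, best known from the testis, had 3.02, 3.00 and 4.38 CPM in the controls and 2.82, 2.89 and 2.36 CPM in the knockdown libraries. Although its groups did not overlap, the gap came to little more than 0.1 CPM and control replicate 3 stood above the rest. Its fold change of 0.777 had the widest interval of the 36 genes (0.54 to 1.12, edgeR adjusted p = 0.503). The inducible pair relative to HSPA8, per length, was 0.139, 0.189 and 0.156 in the controls and 0.144, 0.137 and 0.142 in the knockdown libraries, overlapping ranges.

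**Figure D2:**
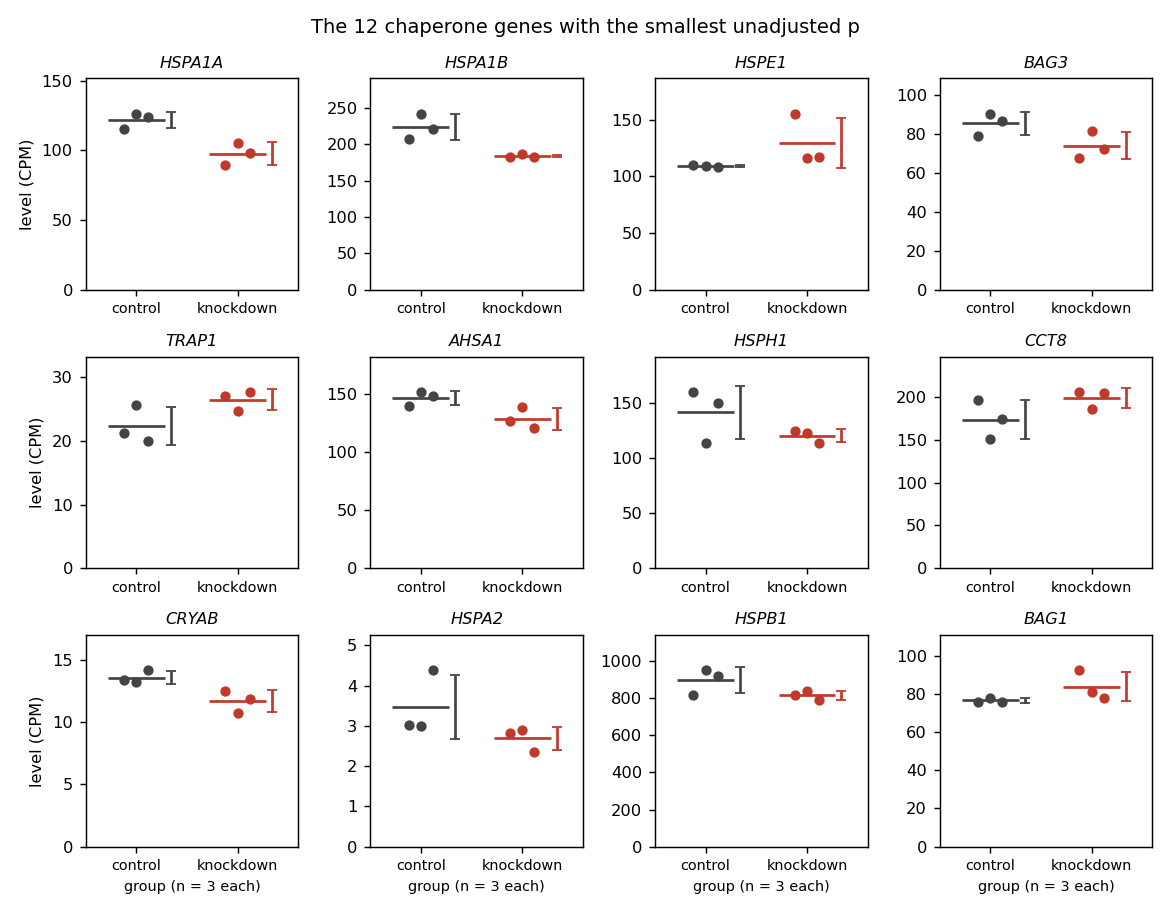
Level in CPM (y axis, from 0) of the 12 chaperone genes with the smallest unadjusted p, in control and knockdown libraries (x axis, n = 3 each); points are libraries, lines are means and brackets show ± 1 SD. The groups of HSPA1A and HSPA1B do not overlap, while the higher mean of HSPE1 in the knockdown includes 1 library at 155 CPM.

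HSP110 proteins release ADP from HSP70 and help it to pull aggregates apart. HSPH1, a heat-inducible HSP110, had 160, 114 and 150 CPM in the controls and 125, 123 and 114 CPM in the knockdown libraries. Control replicate 2 was close to the lowest knockdown library and the other 2 controls were above all of them. The log2 fold change was -0.23 (SE 0.126, fold 0.852, 95% interval 0.702 to 1.03, edgeR adjusted p = 0.414). Without control replicate 2 it was -0.37, with an edgeR adjusted p of 0.0448, in a fit that called 3.19% of all genes. HSPA4, the most abundant HSP110 per length, had 298, 247 and 269 CPM in the controls and 258, 262 and 245 CPM in the knockdown libraries (log2 fold change -0.09, edgeR adjusted p = 0.725). HSPA4L had a log2 fold change of 0.03.

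All 4 mitochondrial chaperones had a fold change above 1, with a median log2 fold change of 0.14, and none was called. HSPE1, the HSP10 lid of the mitochondrial chaperonin (2:197499994-197503457), had 110, 109 and 108 CPM in the controls and 155, 116 and 117 CPM in the knockdown libraries. The controls were nearly identical, and knockdown replicate 1 stood far above the other 2 (109 ± 1.01 and 129 ± 22.4 CPM, SD, n = 3 each). The log2 fold change was 0.25 (SE 0.121, fold 1.19, 95% interval 0.986 to 1.43, edgeR adjusted p = 0.36). It was 0.10 without knockdown replicate 1 and 0.03 with the correction for length and GC content. The longest annotated transcript of HSPE1 has 950 bases.

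HSPD1, the HSP60 barrel that HSPE1 closes (2:197486581-197516737), is transcribed in the opposite direction from the same promoter region. It had 307, 259 and 286 CPM in the controls and 300, 283 and 288 CPM in the knockdown libraries (log2 fold change 0.03, edgeR adjusted p = 0.922). The ratio of HSPE1 to HSPD1 per length was 0.928, 1.09 and 0.978 in the controls and 1.34, 1.06 and 1.05 in the knockdown libraries. The highest ratio belonged to knockdown replicate 1, and the other 2 knockdown libraries lay below control replicate 2. TRAP1, the mitochondrial HSP90, had 21.2, 25.7 and 20.03 CPM in the controls and 27.1, 24.6 and 27.7 CPM in the knockdown libraries. Knockdown replicate 2 lay below control replicate 2, and the log2 fold change was 0.25 (SE 0.128, fold 1.19, 95% interval 0.977 to 1.44, edgeR adjusted p = 0.385). HSPA9, the mitochondrial HSP70 mortalin, had a log2 fold change of 0.03.

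The cytosolic HSP90 genes were among the most highly expressed. HSP90AB1, the constitutive form, had 1344, 1397 and 1317 CPM in the controls and 1315, 1327 and 1234 CPM in the knockdown libraries (fold 0.955, 95% interval 0.835 to 1.09, edgeR adjusted p = 0.787). HSP90AA1, the inducible form, ranged from 744 to 988 CPM over the controls and from 836 to 870 CPM over the knockdown libraries, with a log2 fold change of -0.03. HSP90AA1 relative to HSP90AB1, per length, was 0.582, 0.421 and 0.519 in the controls and 0.508, 0.499 and 0.558 in the knockdown libraries. The lowest and the highest of these ratios both belonged to controls.

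The co-chaperones that tune HSP90 gave values on both sides of 1. AHSA1, which speeds up the ATPase of HSP90, had 140, 152 and 148 CPM in the controls and 127, 139 and 121 CPM in the knockdown libraries. The groups did not overlap, by less than 1 CPM, and the log2 fold change was -0.19 (SE 0.0963, fold 0.879, 95% interval 0.759 to 1.02, edgeR adjusted p = 0.388). With the correction for length and GC content it was -0.31 (edgeR adjusted p = 0.0547). STIP1, the HOP adaptor that links HSP70 to HSP90 and is the highest of the 3 per length, had 238, 252 and 248 CPM in the controls and 212, 253 and 223 CPM in the knockdown libraries (log2 fold change -0.10, edgeR adjusted p = 0.672). CHORDC1 had a log2 fold change of 0.07.

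J-domain proteins deliver clients to HSP70. DNAJA1, the highest of the 5 per length, had 761, 689 and 696 CPM in the controls and 691, 632 and 682 CPM in the knockdown libraries (log2 fold change -0.10, edgeR adjusted p = 0.676). Knockdown replicate 1 lay above control replicate 2 by about 2 CPM. The log2 fold change was -0.10 for DNAJA2, -0.05 for the heat-inducible DNAJB1, -0.08 for DNAJB6 and 0.04 for DNAJB4. Summed over the 5 genes, the level was 1408, 1353 and 1347 CPM in the controls and 1324, 1272 and 1293 CPM in the knockdown libraries. It was the one family whose summed level did not overlap between groups, at a ratio of 0.947. Among single genes, 21.6% of all tested genes did not overlap, and no such share was computed for sums of genes.

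Small heat shock proteins hold unfolded proteins without using ATP, and the BAG proteins act on HSP70. HSPB1 (HSP27), the highest of the 36 genes per length, had 819, 950 and 922 CPM in the controls and 818, 839 and 789 CPM in the knockdown libraries. Control replicate 1 was within the range of the knockdown libraries, and the log2 fold change was -0.14 (SE 0.0951, fold 0.909, 95% interval 0.786 to 1.05, edgeR adjusted p = 0.534). With the correction for length and GC content it was -0.30 (edgeR adjusted p = 0.0697). CRYAB, the alpha-B crystallin gene, had 13.4, 13.2 and 14.2 CPM in the controls and 12.5, 10.8 and 11.9 CPM in the knockdown libraries. Every knockdown library was below every control, with a log2 fold change of -0.22 (SE 0.135, fold 0.861, 95% interval 0.701 to 1.06, edgeR adjusted p = 0.477). The same correction gave -0.40 (edgeR adjusted p = 0.0876). HSPB8, the partner of BAG3 in selective autophagy, had a log2 fold change of 0.07.

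BAG3 itself had 78.8, 90.2 and 86.7 CPM in the controls and 67.7, 81.2 and 72.2 CPM in the knockdown libraries. Knockdown replicate 2 lay above control replicate 1, and the log2 fold change was -0.21 (SE 0.106, fold 0.865, 95% interval 0.736 to 1.02, edgeR adjusted p = 0.376). BAG1, which couples HSP70 to the proteasome, had 76.0, 78.1 and 75.7 CPM in the controls and 92.4, 81.0 and 78.1 CPM in the knockdown libraries. Its highest value, like that of HSPE1, came from knockdown replicate 1 (log2 fold change 0.13, fold 1.09, 95% interval 0.94 to 1.27, edgeR adjusted p = 0.583).

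The 8 CCT subunits form one complex with 1 copy of each in every ring. Their log2 fold changes were above 0 for 4 and below 0 for 4, with a median of -0.01 and a range from -0.11 (TCP1) to 0.19 (CCT8). CCT8 had 196, 151 and 175 CPM in the controls and 206, 186 and 205 CPM in the knockdown libraries. Control replicate 2 was the lowest library and control replicate 1 was within the range of the knockdown libraries (fold 1.14, 95% interval 0.965 to 1.36, edgeR adjusted p = 0.439). CCT3, the highest subunit per length, had 410, 411 and 416 CPM in the controls and 416, 428 and 396 CPM in the knockdown libraries, a fold change of 1.00 (95% interval 0.877 to 1.15, edgeR adjusted p = 0.993). The log2 fold change was -0.02 for CCT2, -0.04 for CCT4, 0.04 for CCT5, -0.06 for CCT6A and 0.02 for CCT7. Transcript levels per length were not equal: in each library CCT3 was between 2.69 and 3.04 times the lowest subunit. The summed level of the 8 genes was 1930 ± 54.1 CPM in the controls and 1935 ± 45.2 CPM in the knockdown libraries (SD, n = 3 each).

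**Figure D3:**
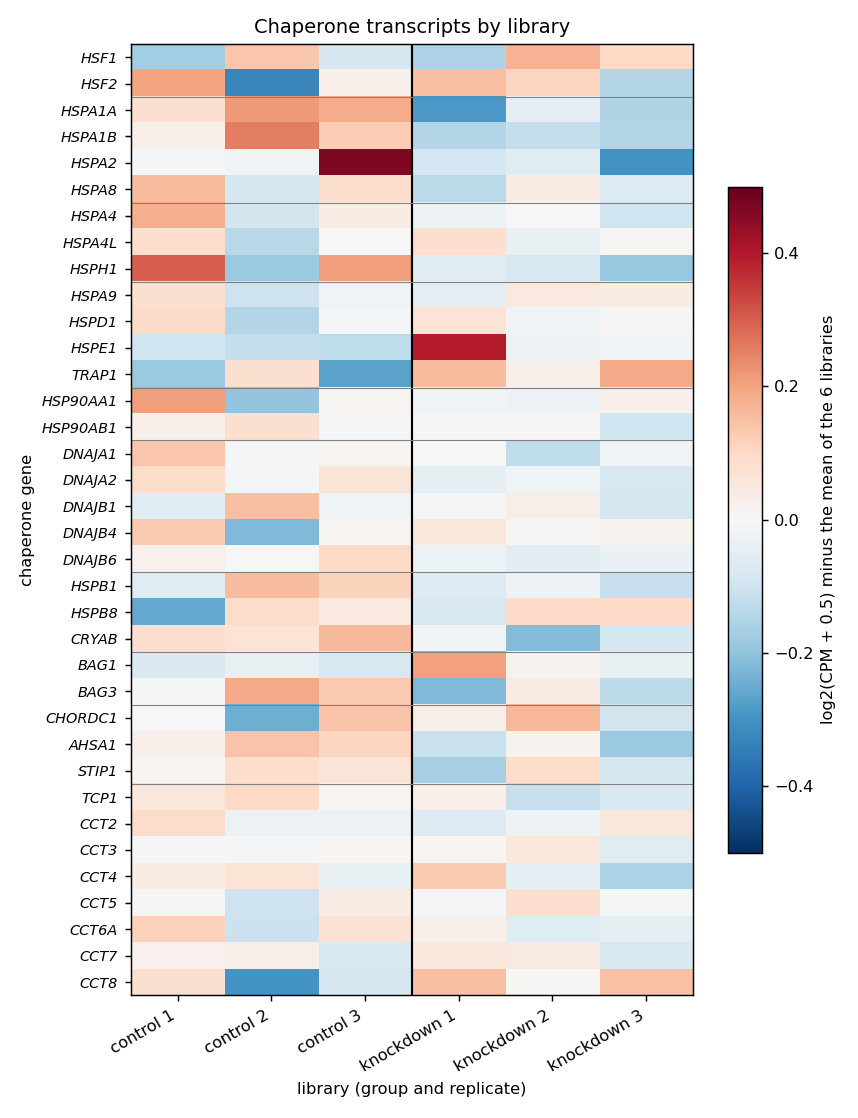
Deviation of each of the 36 genes (rows) from its mean over the 6 libraries (columns), on the scale log2(CPM + 0.5), with red above and blue below the mean. HSPA1A and HSPA1B are above their mean in all controls and below it in all knockdown libraries, and HSPE1 stands out in knockdown replicate 1.

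A list held 17 of the 36 genes as heat-inducible targets of HSF1, HSPA8 included although it is described above as constitutive. Of these, 12 had log2 fold changes below 0: HSPA1A, HSPA1B, HSPA8, HSPH1, HSPB1, HSP90AA1, DNAJA1, DNAJB1, BAG3, AHSA1, STIP1 and CRYAB. The 5 above 0 were HSPA4L, HSPD1, HSPE1, DNAJB4 and CHORDC1, and the median of the 17 was -0.10. HSPA1A and HSPA1B count separately among the 12 although they are not independent. Over all tested genes 50.2% were below 0. The other 19 chaperone genes had 9 below 0 and 10 above, with a median of 0.00. None of either set was called. The 7 genes whose windows hold a run of 3 heat shock units had a median log2 fold change of -0.07, with 5 below 0, and the 26 matched genes without one had a median of -0.03. Over all 58 tested genes of the genome with such a run, the median was -0.06, 36 were below 0 and 1 was called. Among the 11955 tested genes with a window and no such run, the median was -0.00456, 6062 were below 0 and 75 were called. Over all tested genes 0.655% were called. Of the 58 genes with a run, 6.9% had an unadjusted p under 0.05, against 17.2% of the 11955 genes without such a run. These are descriptions of the lists, without a test.

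Control replicate 2 stood apart in a way that followed base composition. Among the 21 chaperone genes with a GC content under 50% it was the lowest of the 3 controls for 16. Among the 15 genes with 50% GC or more it was the highest for 11. Over the 36 genes, the Spearman correlation between GC content and the deviation of a library from the 6-library mean was 0.79 in control replicate 2, -0.613 in control replicate 1 and between -0.448 and 0.11 in the others. The same correlation over 13690 protein-coding genes was 0.581 in control replicate 2 and -0.477 in control replicate 1. The points share one library each and their deviations are not independent. HSPA1A and HSPA1B have a GC content of 59.7% and 58.8%, and control replicate 2 was their highest library. Without it their log2 fold changes were -0.30 and -0.22, with edgeR adjusted p of 0.0985 and 0.119. For 23 of the 36 genes the spread of log2 levels was larger among controls than among knockdown libraries. The median SD was 0.106 in the controls and 0.0725 in the knockdown libraries. The part of base composition in the fold changes was not tested beyond these alternatives.

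**Figure D4:**
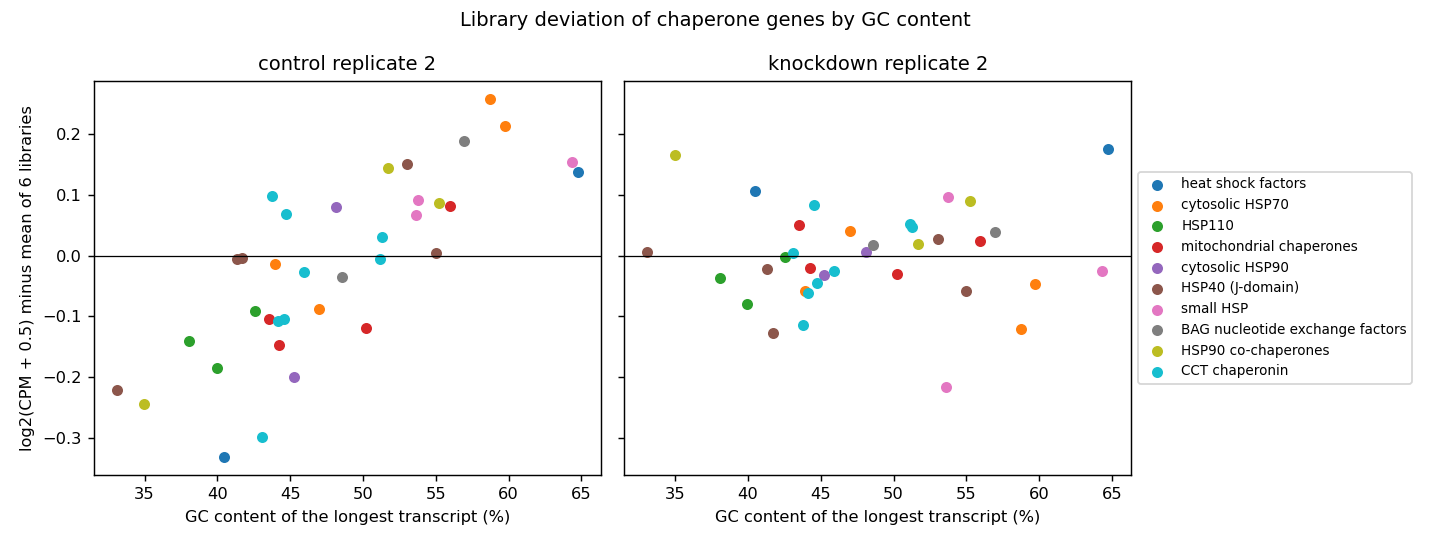
Deviation of the 36 chaperone genes from their 6-library mean, on the scale log2(CPM + 0.5) (y axis), against the GC content of the longest transcript in percent (x axis), in control replicate 2 (left) and knockdown replicate 2 (right); each point is a gene, coloured by family. Deviations climb with GC content in control replicate 2 (Spearman 0.79) and show little relation in knockdown replicate 2 (0.11).

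Other genes of the chaperone network numbered 55, of which 51 were tested, and edgeR called none of them, where it called 0.655% of all tested genes. At an unadjusted p under 0.05, 7 were higher and 4 lower (21.6%, against 15.6% of all genes). The smallest p belonged to PTGES3, the HSP90 co-chaperone p23, which had 379, 414 and 401 CPM in the controls and 312, 275 and 257 CPM in the knockdown libraries. Every knockdown library was well below every control, with a log2 fold change of -0.50 (SE 0.102, fold 0.708, 95% interval 0.606 to 0.826, edgeR adjusted p = 0.0582). The adjusted p was under the threshold with DESeq2 (0.000423) and limma-voom (0.0452), and over all alternatives it ran from 0.000423 to 0.339. HSPBP1, which releases nucleotide from HSP70, had 26.3, 35.0 and 30.5 CPM in the controls and 44.9, 37.1 and 42.1 CPM in the knockdown libraries. The groups did not overlap, with a log2 fold change of 0.43 (SE 0.13, fold 1.35, 95% interval 1.11 to 1.65, edgeR adjusted p = 0.156). The DESeq2 adjusted p was 0.0369, where DESeq2 called 4.92% of all genes. Over all alternatives the adjusted p of HSPBP1 ran from 0.0369 to 0.601. Its log2 fold change was 0.31 with the correction for length and GC content.

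HSPB7, a small heat shock protein gene of heart and muscle, had 1.36, 1.23 and 2.43 CPM in the controls against 0.626, 0.843 and 0.628 CPM in the knockdown libraries. At these low levels the log2 fold change was -1.26 (SE 0.366, edgeR adjusted p = 0.147). Prefoldin hands unfolded actin and tubulin to CCT. All 8 tested genes of prefoldin and the CCT cofactors had a fold change above 1, with a median log2 fold change of 0.23. Over all tested genes 50.2% were below 0. An unadjusted edgeR p under 0.05 was found for 3 (37.5%, against 15.6% of all genes), and none was called. Knockdown replicate 1 was the highest library for PFDN2, PFDN4, PFDN5, PFDN6 and PDCL3, but not for PFDN1, VBP1 and TXNDC9. PFDN5 had 265 CPM there, against 168 and 183 CPM in the other knockdown libraries. HSPA6, an HSP70 gene that is nearly silent without stress, was between 0.312 and 0.899 CPM in all 6 libraries.

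Reads from overlapping genes limit some of these values. Exons of 13 of the 36 genes overlap a gene on the opposite strand and those of 7 overlap one on the same strand, and whether the counting used the strand is not given in the sources used here. Apart from the HSPA1A and HSPA1B pair, CCT5 shared 45.6% of its 150-base windows with a gene on the opposite strand. A further 9 genes shared under 15% each, and 24 shared none.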

How the data were processed

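The deposited values are raw counts for each gene in 6 libraries. The submitters' processing notes list HISAT2 2.0.4, StringTie 1.3.4d and cutadapt 1.9, as well as edgeR and DESeq2, with build GRCh38. The program that produced the counts, its annotation, its use of strand and its treatment of reads with several positions were not given in the sources used here.

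Counts were tested in R 4.3.3 with edgeR 4.0.16 (quasi-likelihood F test, TMM, two-sided, group as the only term, both groups in 1 fit). Genes were kept by filterByExpr with a minimum of 10 counts, and p-values were adjusted by Benjamini-Hochberg over all 17723 tested genes, with calls at 0.05. CPM are TMM-normalised. The depth makes 3 counts worth 0.0463 to 0.0514 CPM, which covers counting error only. Of 60612 identifiers, 60588 matched a symbol in GENCODE 29, which gave positions (GRCh38) and lengths. Levels per kb use the longest principal transcript. No 2 libraries agreed within sampling noise (chi-square per degree of freedom at least 21.3).

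Alternatives were DESeq2 size factors, library size alone, no filter, DESeq2 1.42.0, limma-voom (limma 3.58.1), a replicate block, a loess correction for length and GC content (span 0.3) and leaving out each library. A covariate for RNAs without a poly(A) tail and the summed HSPA1A and HSPA1B counts were added after seeing the data. The summed level of 5 such RNAs was 32.7 to 78.5 CPM in the controls and 36.2 to 161 CPM in the knockdown libraries.

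The chaperone genes and lists were chosen with earlier results of these data known. Named with values in every library were TEAD3, HSF1, HSF2, the called chaperone genes and further ones by unadjusted p up to 12, the gene with the highest level per length in each family, and 3 other network genes by p. On simulated counts (17192 genes), edgeR recovered 80% of 2-fold and 94% of 4-fold changes, with 14 false calls among 125.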

Additional observations from a re-analysis of the deposited data

How the results depend on the processing

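The count of chaperone genes called stayed at 0 except with the length and GC correction (2, HSPA1A and HSPA1B) and when libraries were left out in turn (0 to 1; HSPH1 without control replicate 2). The count of chaperone genes whose groups did not overlap was 8, 11 with library size alone (21.5% of all genes), 14 with the length and GC correction (26.4% of all genes) and 10 to 15 with a library left out (27.6% to 40.8% of all genes, since fewer libraries overlap less often). Over 15 settings 21 of the 36 genes kept one sign and 15 took both. Of the 51 other network genes tested, 1 was called with library size alone, where 0.598% of all genes were called. DESeq2 called 2 (4.92% of all genes), limma-voom 1 (0.677%) and the fit with the length and GC correction 2 (3.28%). With a library left out 0 to 3 were called. The 3 were PTGES3, HSPBP1 and BAG2 without control replicate 2, where 3.19% of all genes were called.

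Over all genes, 116 were called, but 31 without a filter, 872 with DESeq2, 581 with the length and GC correction, 26 with the covariate for RNAs without a poly(A) tail, and 20 (without knockdown replicate 3) to 589 (without control replicate 2) with a library left out. The cause was not tested. With the replicate number as a block 63 genes were called. Same-numbered libraries did not deviate together (correlations 0.0183, -0.0496 and -0.0055). Pairing by number was therefore not visible, but these correlations cannot exclude it. The call of TEAD3 was also lost without a filter (-1.56, edgeR adjusted p = 0.0639) and with the covariate (-1.43, edgeR adjusted p = 0.0628).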
